A study of Mus musculus with 79 samples.

Results

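Nuclear-encoded subunits of the mitochondrial respiratory chain were followed through 3 experiments on the enzyme AHCY and the circadian clock. Genes were taken by symbol: names beginning with Nduf and a letter a, b, c, s or v with a number (complex I), Sdha to Sdhd (complex II), Uqcr (complex III), Cox4 to Cox8 (complex IV) and Atp5 (complex V). Of 20738 gene names present in all 6 expression tables, 84 met this rule: 37 of complex I, 4 of complex II, 8 of complex III, 18 of complex IV and 17 of complex V. The rule goes by name, so Ndufa4, now counted with complex IV, stays with complex I, and Atp5s and Atp5sl, listed by RefSeq as Dmac2l and Dmac2, stay with complex V. Subunits encoded by mitochondrial DNA were not analysed here.

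Complexes I and II pass electrons from NADH and succinate to coenzyme Q, complex III passes them to cytochrome c, and complex IV passes them to oxygen. Complexes I, III and IV pump protons across the inner mitochondrial membrane, and complex V, the ATP synthase, uses the gradient to make ATP. AHCY hydrolyses S-adenosylhomocysteine, the by-product and inhibitor of methyl transfer from S-adenosylmethionine, and DZnep inhibits it. The suprachiasmatic nucleus (SCN) is the hypothalamic pacemaker of circadian rhythms.

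RNA-seq was available for 79 libraries. The first experiment set WT against AHCY null embryonic fibroblasts of C57BL/6J mice, the null line made with CRISPR-Cas9, at circadian times (CT, in h) 12, 16, 20, 24, 28 and 32, with 3 libraries per group. The second set DMSO against DZnep (dissolved in DMSO) in the same kind of fibroblasts at CT12 and CT24, again with 3 libraries per group. All fibroblasts, controls included, had been synchronized at confluence by a 1 h pulse of 100 nM dexamethasone. The third set saline against DZnep infused into the hypothalamus of C57BL/6 mice aged 10 weeks, with SCN punches at CT3, CT9, CT15 and CT21, and 4 libraries per group except 3 for saline at CT21. The sources used here do not say whether the AHCY null line is 1 clone, so a difference between lines cannot be told apart from the loss of AHCY. An SCN punch holds several cell types, and fewer cells of a type cannot be told apart from less RNA per cell.

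Ahcy mRNA was between 2.21 and 4.74 TPM in the 18 AHCY null libraries and between 130.9 and 213.6 TPM in the 18 WT libraries. It overlapped between arms under DZnep, which acts on the enzyme. The WT libraries at CT20 also held skeletal muscle transcripts (summed level of 12 markers 433 to 586 TPM, against 4.7 to 8.3 TPM at the other WT times). The endothelial markers summed to 139 to 273 TPM in WT and 2.60 to 8.35 TPM in AHCY null libraries, and the fibroblast markers to 8863 to 11301 and 7838 to 9614 TPM; under DZnep in fibroblasts, the fibroblast markers summed to 4051 to 5183 FPKM in DMSO and 2518 to 3306 FPKM in DZnep libraries. In the SCN, neuron markers summed to 547 to 808 FPKM in saline and 490 to 717 FPKM in DZnep libraries, Malat1, a nuclear RNA, to 844 to 1246 and 515 to 925 FPKM, and the saline library CT9 replicate 2 stood apart with 168 FPKM of microglia and macrophage markers. The part of these marker levels in the results below was not tested.

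The promoters of 5 members on which the results turn are shown, because respiratory chain genes are known targets of the factors NRF1, ETS family GABP and YY1, and clock factors bind E-boxes. RefSeq (GRCm38.p6) held promoters, 250 bases before to 50 bases after the start, for 66 of the 84 members, some with more than 1 start, which made 71 promoters. Capitals mark the NRF1 core TGCGCA or the E-box CACGTG. The windows are chr15:82354242-82354541 for Ndufa6, chr17:83514284-83514583 for Cox7a2l, chr13:74350191-74350490 for Sdha, chr15:102670998-102671297 for Atp5g2 and chr2:73911277-73911576 for Atp5g3, each given 5′ to 3′ on its gene's minus strand.
Ndufa6: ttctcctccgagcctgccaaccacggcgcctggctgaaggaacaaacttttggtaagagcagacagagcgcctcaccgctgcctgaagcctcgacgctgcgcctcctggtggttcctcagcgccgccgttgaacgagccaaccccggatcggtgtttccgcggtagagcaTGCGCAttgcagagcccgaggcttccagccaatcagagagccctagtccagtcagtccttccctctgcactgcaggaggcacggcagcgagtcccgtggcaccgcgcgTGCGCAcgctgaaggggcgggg
Cox7a2l: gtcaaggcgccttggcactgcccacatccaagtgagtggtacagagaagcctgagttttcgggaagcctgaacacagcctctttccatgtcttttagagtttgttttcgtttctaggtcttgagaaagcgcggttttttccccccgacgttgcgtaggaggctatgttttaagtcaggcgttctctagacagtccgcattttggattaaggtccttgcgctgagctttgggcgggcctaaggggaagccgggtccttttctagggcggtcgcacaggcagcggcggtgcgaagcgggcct
Sdha: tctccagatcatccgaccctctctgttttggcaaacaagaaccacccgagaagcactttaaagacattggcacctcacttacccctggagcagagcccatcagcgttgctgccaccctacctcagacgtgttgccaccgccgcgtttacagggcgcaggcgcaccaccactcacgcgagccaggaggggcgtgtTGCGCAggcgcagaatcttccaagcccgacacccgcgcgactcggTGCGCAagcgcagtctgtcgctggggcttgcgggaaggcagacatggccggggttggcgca
Atp5g2: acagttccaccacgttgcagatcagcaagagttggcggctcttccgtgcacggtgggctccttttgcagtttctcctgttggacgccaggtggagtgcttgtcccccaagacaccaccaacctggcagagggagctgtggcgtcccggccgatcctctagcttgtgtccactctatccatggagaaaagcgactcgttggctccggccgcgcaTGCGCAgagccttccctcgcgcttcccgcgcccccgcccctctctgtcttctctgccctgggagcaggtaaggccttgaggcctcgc
Atp5g3: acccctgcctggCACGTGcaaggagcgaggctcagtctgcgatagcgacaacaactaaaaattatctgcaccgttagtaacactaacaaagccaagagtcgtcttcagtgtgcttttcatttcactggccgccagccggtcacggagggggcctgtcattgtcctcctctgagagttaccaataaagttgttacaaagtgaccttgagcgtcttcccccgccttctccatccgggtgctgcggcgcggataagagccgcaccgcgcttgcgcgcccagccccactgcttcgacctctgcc
The NRF1 core lay 80 bases upstream and 28 bases downstream of the start in Ndufa6, 56 and 11 bases upstream in Sdha and 37 bases upstream in Atp5g2. Atp5g3 held an E-box 238 bases upstream, and the Cox7a2l window held none of the 4 motifs searched. Over all members, the NRF1 core was in 18 of 71 promoters (25.4%, against 7.76% of all 32851 promoters), the ETS motif CCGGAAG in 16 (22.5% against 8.86%), the YY1 motif AAGATGG in 10 (14.1% against 6.34%) and the E-box in 6 (8.45% against 7.15%). Both strands were searched. A match is a description of letters and not a binding site.

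The members' differences in each experiment were tested with limma on rescaled values, log2(value + 1), with p-values adjusted by Benjamini-Hochberg over all genes tested. A member was called higher or lower at an adjusted p under 0.05, and log2 differences below are means over the times. Levels, medians and sums of levels are as deposited, without rescaling, so they need not match the log2 differences. Overlap between arms was read on these deposited values, except where rescaling is stated. Members under 1 TPM or FPKM in all but a few libraries were not tested: Ndufa4l2, Cox4i2, Cox7b2 and Cox8c in the AHCY null experiment, the same 4 with Cox6a2, Cox7a1 and Cox8b in DZnep fibroblasts, and Cox7b2, Cox8b and Cox8c in the SCN. Cox8c, a testis isoform, was listed at 0 in every library.

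**Figure D1:**
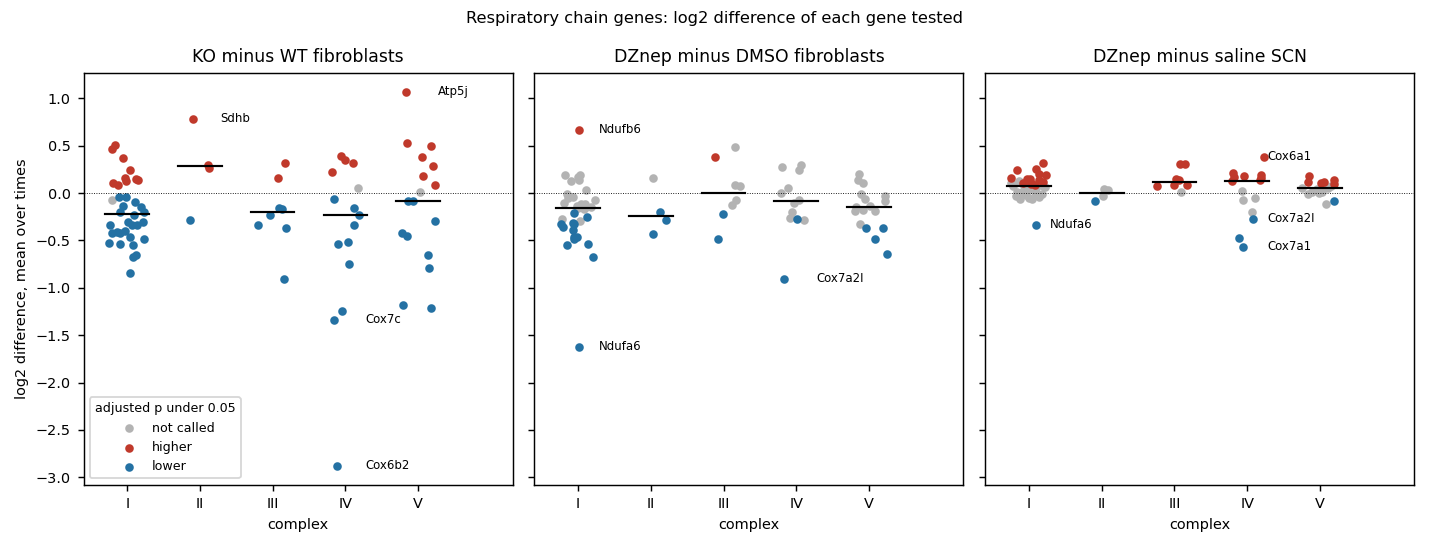
Log2 difference between arms (y axis, mean over times) of each member tested, by complex (x axis), in AHCY null against WT fibroblasts, DZnep against DMSO fibroblasts and DZnep against saline SCN. Colours mark the call and black bars the median of a complex; the median over all members is -0.18, -0.15 and 0.08 in the 3 panels.

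In AHCY null fibroblasts nearly every member differed from WT, in both directions. Of 80 tested, 26 were higher, against 42.6% of all genes, and 51 lower, against 47% of all genes. The 51 include Cox6b2, Cox7a1 and Cox8b, which passed the filter on low values through WT libraries alone. The median difference was -0.18 and that over all genes -0.05. Rescaling lowered AHCY null values by 0.219 on the log2 scale relative to WT, and without it 37 members were higher and 35 lower, so the split between directions depends on the scaling; 26 higher and 35 lower calls held under all 3 scalings tried, and 10 members, all called lower, were called higher without rescaling (Atp5g1, Atp5l, Cox7b, Ndufa4, Ndufb6, Ndufb8, Ndufs4, Ndufs6, Uqcr10 and Uqcrc2). The summed level of the 84 members was 20279.8 ± 781 TPM (SD, n = 18) in WT and 19934.6 ± 463 TPM in AHCY null libraries.

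In complex II, which feeds electrons from the citric acid cycle, 3 of the 4 genes rose. Sdhb, the iron-sulfur subunit, lay between 51.4 and 70.1 TPM in WT (median 62.9) and between 114 and 136 TPM in AHCY null libraries (median 125), with no overlap, a log2 difference of 0.79 (SE 0.023, adjusted p = 8.3e-23). Sdhd and Sdhc, the membrane anchors, differed by 0.30 and 0.26. Sdha, the flavoprotein that oxidises succinate, was lower by -0.28, but by -0.06 without rescaling. The summed level of complex II, before rescaling, was 457 ± 13.1 TPM in WT and 621 ± 13.6 TPM in AHCY null libraries.

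In complex V, 7 members were higher and 9 lower, and the 3 genes for its subunit c differed among themselves. These genes, Atp5g1, Atp5g2 and Atp5g3, encode the same mature protein, which forms the rotor ring. Atp5g2 lay between 762 and 1050.5 TPM in WT and between 452 and 554 TPM in AHCY null libraries (log2 difference -1.18, SE 0.032, adjusted p = 2.29e-23). Atp5g3 was higher by 0.50 (adjusted p = 7.42e-17), and Atp5g1 differed by -0.08, a call that changed direction with the scaling. The catalytic beta subunit gene Atp5b fell by 0.66, and the central stalk genes moved apart, Atp5c1 (gamma) by 0.29 and Atp5d (delta) by -0.79. Atp5f1, of the peripheral stalk, was higher by 0.53, and Atp5s was lower by -1.21. Atp5j was listed between 0 and 13.3 TPM in WT and between 0 and 15.8 TPM in AHCY null libraries, while its mean was 77.1 FPKM under DMSO and 223 FPKM under saline, so its call of higher rests on erratic values.

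In complex IV, 4 members were higher and 10 lower, the latter including Cox6b2, Cox7a1 and Cox8b, which are given by level only. Cox7c, a small structural subunit, lay between 830 and 1018 TPM in WT (median 929) and between 378 and 476 TPM in AHCY null libraries (median 411), a log2 difference of -1.34 (SE 0.023, adjusted p = 3.29e-28). Cox7a2l, a factor that joins complexes III and IV into supercomplexes, lay between 316 and 472 TPM in WT and between 237 and 309 TPM in AHCY null libraries, a log2 difference of -0.75 (adjusted p = 2.07e-26). Neither overlapped between arms. Cox6b2, the testis isoform of Cox6b, was at 2.86 to 9.77 TPM in WT and listed at 0 in 17 of the 18 AHCY null libraries, whereas its general partner Cox6b1 was higher by 0.22. Cox5a and the widely expressed isoforms Cox7a2 and Cox6a1 were higher by 0.39, 0.32 and 0.35.

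The heart and muscle isoforms of complex IV, Cox6a2, Cox7a1 and Cox8b, were highest in the WT libraries at CT20, where the skeletal muscle markers were. At that time Cox6a2 was between 2.70 and 4.61 TPM, Cox7a1 between 2.87 and 5.96 TPM and Cox8b between 2.87 and 5.05 TPM. At the other WT times Cox6a2 was at most 0.424 TPM and Cox8b at most 0.193 TPM. Cox7a1 was between 0.42 and 2.2 TPM at those times. In AHCY null libraries Cox6a2 was at most 1.16 TPM, Cox7a1 at most 0.696 TPM and Cox8b at most 0.475 TPM. Cox8b and Cox6a2 passed the filter on low values through the CT20 WT libraries (3 of 3 and 3 of 4 of their libraries at 1 TPM or more), and Cox7a1 and Cox6b2 through WT libraries alone, so their calls say nothing beyond these levels.

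**Figure D2:**
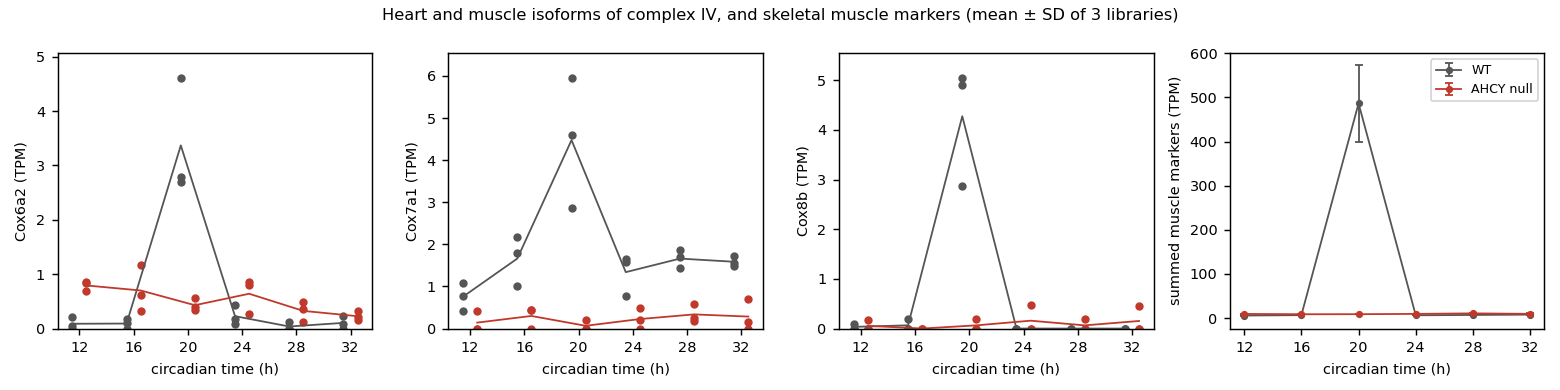
Cox6a2, Cox7a1 and Cox8b (TPM, 1 point per library, line through the means of 3) by circadian time in WT and AHCY null fibroblasts, and the summed skeletal muscle markers (mean ± SD of 3 libraries). All 4 panels peak in WT at CT20, where the marker sum lies between 433 and 586 TPM.

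In complexes I and III the lower calls were the more frequent, 25 against 10 and 6 against 2. Ndufb7, of the membrane arm of complex I, differed by -0.84 (adjusted p = 2.31e-21), Ndufa9 by -0.53 and Ndufa10 by -0.40, all accessory subunits. Ndufa6 lay between 126 and 216 TPM in WT and between 104 and 130 TPM in AHCY null libraries, a log2 difference of -0.67 (adjusted p = 1.21e-16). Ndufa8 was higher by 0.47, Ndufc1 by 0.51 and Ndufs3, a core subunit of the peripheral arm, by 0.37. In complex III Uqcr11, a small subunit, was lower by -0.91 and Uqcrh, the hinge protein, by -0.34. Uqcrc1 and Uqcrq were higher by 0.31 and 0.16, and the other core protein gene, Uqcrc2, was lower by -0.16 but changed sign without rescaling. Under all 3 scalings, complex I kept 10 higher and 17 lower calls and complex III 2 and 3.

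**Figure D3:**
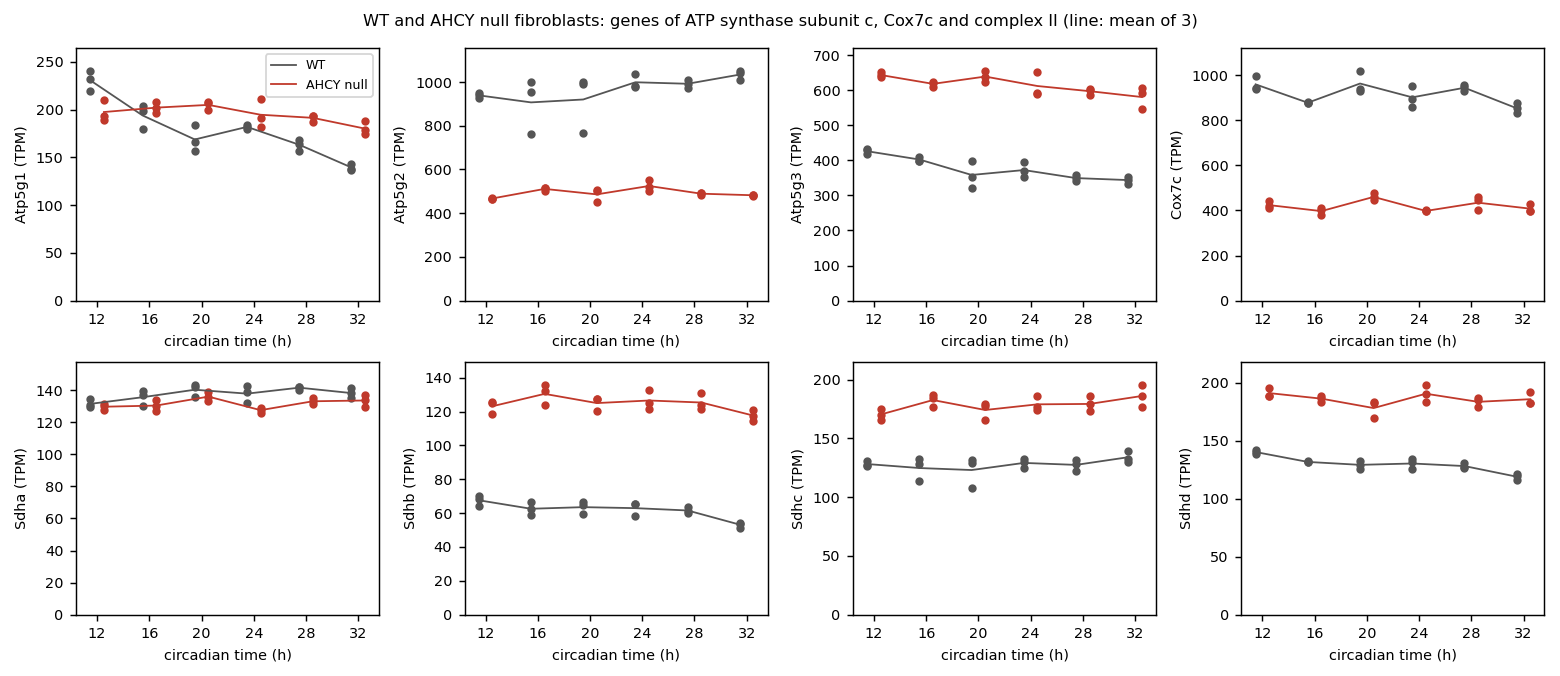
Level (TPM, y axis) by circadian time (h, x axis) of the subunit c genes Atp5g1 to Atp5g3, of Cox7c and of the 4 complex II genes, 1 point per library, line through the means of 3. Atp5g2 and Cox7c lie lower and Atp5g3, Sdhb, Sdhc and Sdhd higher in AHCY null libraries at every time.

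Counts at each time were as follows. At CT12, 14 members were higher (36.6% of all genes were) and 54 lower (38.1%). At CT16 the counts were 22 (36.9%) and 35 (39.5%), at CT20 24 (37.3%) and 41 (40.4%), at CT24 20 (36.9%) and 47 (39.8%). At CT28 they were 21 (37.4%) and 39 (40.2%), and at CT32 25 (38.5%) and 38 (40.8%). Without rescaling, 28 were higher and 32 lower at CT12, 32 and 26 at CT16, and 32 and 27 at CT20. At CT24, CT28 and CT32 the unrescaled counts were 31 and 29, 33 and 30, and 36 and 26. Lower calls then outnumbered higher ones at CT12 only. The members' summed level in WT was 21345 TPM at CT12 and had declined to 19176 TPM by CT32, while AHCY null libraries held 19819 and 19748 TPM. Over all libraries, 10 members lay wholly higher and 24 wholly lower in AHCY null libraries after rescaling, against 22% and 23.9% of all genes. The 24 include Cox6b2, which passed the filter through WT libraries alone.

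Each line's time course was fitted with a 24 h wave (sine plus cosine). Of 80 members, 20 were called in WT (36.5% of all genes) and 1, Cox7a2l, in AHCY null (9.89% of all genes). The 20 include Cox8b, Cox6a2, Cox7a1 and Cox6b2, which passed the filter only or mainly through WT libraries, so these calls carry no weight. The difference of the terms between lines was called for 1 member, Ndufv3 (14.5% of all genes), a subunit of the complex I arm that takes electrons from NADH, at an adjusted p of 0.0495, and 9 members (11.2%, against 29.1% of all genes) had an unadjusted p under 0.05. The count of 1 became 0, 2 or 3 in 27 of the 36 fits that left out a library. The largest amplitudes among the WT calls, on the log2 scale, were those of Atp5j (1.41), with its erratic values, and of Cox8b (0.83) and Cox6a2 (0.72), which passed the filter through the CT20 libraries. In WT, Ndufv3, Cox7a2l and Ndufa6 had amplitudes of 0.21, 0.17 and 0.18 on the log2 scale and fitted peaks at 4.72, 3.40 and 4.11 h. The times span less than 1 period. Over them these 3 members climbed in WT rather than returned: the CT12 and CT32 means were 320 and 464 TPM for Cox7a2l, 132 and 195 TPM for Ndufa6, and 91.7 and 124 TPM for Ndufv3. With a linear trend in the fit, Cox7a2l, Ndufa6 and Ndufv3 were no longer called (adjusted p 0.244, 0.873 and 0.3), while 27 members in all were called in WT, 33.8% against 31.1% of all genes.

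In DZnep fibroblasts, few members were higher. Of 77 tested, 2 were higher, against 33.1% of all genes, and 25 lower; the share lower, 32.5%, was at the background of 32.7%, and 50 were not called. The median difference was -0.15 and that over all genes 0.01. By complex, lower calls numbered 14 of 36 in complex I, 3 of 4 in complex II, 2 of 8 in complex III, 2 of 12 in complex IV and 4 of 17 in complex V. The DMSO library CT24 replicate 2 was highest in Malat1 (196 FPKM), and without it 40 were lower and 3 higher; without DMSO CT24 replicate 3, 13 were higher. Without rescaling the counts were 5 higher and 16 lower, and with quantile normalization 14 and 24; 2 higher and 15 lower calls held under all 3 scalings.

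Ndufa6, an accessory subunit of complex I of the LYR family, moved most. At CT12 its levels were 75.5, 87.9 and 78.9 FPKM under DMSO and 26.5, 25.6 and 34.3 FPKM under DZnep, and at CT24 68.1, 68.7 and 102.6 FPKM under DMSO and 20.2, 26.8 and 25.2 FPKM under DZnep. Every DZnep library was below every DMSO library. The log2 difference was -1.62 (SE 0.107, adjusted p = 1.41e-07). Cox7a2l was between 118 and 196 FPKM under DMSO and between 73.6 and 97.9 FPKM under DZnep, again without overlap, a log2 difference of -0.91 (SE 0.1, adjusted p = 8.87e-06).

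Among the others, Ndufb5 of the complex I membrane arm differed by -0.68, Ndufs1, the largest iron-sulfur subunit, by -0.32, and Atp5g2 by -0.64, all lower in DZnep. Sdha was lower by -0.29 (56.4 to 70.3 FPKM under DMSO and 48.5 to 59.7 FPKM under DZnep). Sdhb and Sdhc, higher in AHCY null fibroblasts, were lower here by -0.44 and -0.20, calls that were lost in 10 and 7 of 19 alternative fits. Uqcrh was lower by -0.48 and Atp5f1 by -0.37. The 2 higher members were Ndufb6, of the membrane arm, by 0.67 (adjusted p = 0.000908), and Uqcr10, a small complex III subunit, by 0.38 (adjusted p = 0.0222).

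By time, 17 members were lower (25.8% of all genes) and 0 higher (25.7%) at CT12, and 12 lower (28.7%) and 3 higher (27.9%) at CT24. Leaving out 1 library gave 8 to 33 lower at CT12, and 6 to 28 lower and 1 to 21 higher at CT24; quantile normalization gave 7 and 13 higher. Between CT12 and CT24, lower calls outnumbered higher ones in both arms. Under DMSO 52 of 77 fell (23.9% of all genes), 1, Cox6b2, rose (26.8%) and 24 were not called, with a median of -0.53. Under DZnep 27 fell (17.8%), 1, again Cox6b2, rose (19.4%) and 49 were not called, with a median of -0.39; the count that fell was 8 without DZnep CT24 replicate 1 and 53 without DMSO CT24 replicate 3. Atp5g1 fell by 1.09 and 1.05 and Uqcrb, a complex III subunit that binds coenzyme Q, by 0.68 and 0.57. The difference between the arms' changes was called for 0 members in either direction (3.2% and 2.91% of all genes), and 0 had an unadjusted p under 0.05 (20.2% of all genes); without DMSO CT24 replicate 3, 16 were called higher.

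In the DZnep SCN, higher members outnumbered lower ones. Of 81 tested, 35 were higher, against 16.9% of all genes, 6 were lower, against 18.3%, and 40 were not called; the median difference was 0.08, and that over all genes -0.005. Complex III had 7 of its 8 members higher, complex IV 8 of 15, complex I 14 of 37, complex V 6 of 17 and complex II 0 of 4. The summed level of complex III was 742 ± 49.3 FPKM (SD, n = 15) under saline and 844 ± 47.1 FPKM (n = 16) under DZnep, and that of complex IV 1358 ± 97.2 and 1537 ± 95.0 FPKM. All members together made 2.25% of summed FPKM under saline and 2.41% under DZnep. After rescaling, 0 members lay wholly higher under DZnep (0.173% of all genes) and 1 wholly lower (0.368%). Under all 3 scalings 32 higher and 4 lower calls held. The higher calls that held numbered 5 in complex III, 8 in complex IV, 13 in complex I, 6 in complex V and 0 in complex II.

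**Figure D4:**
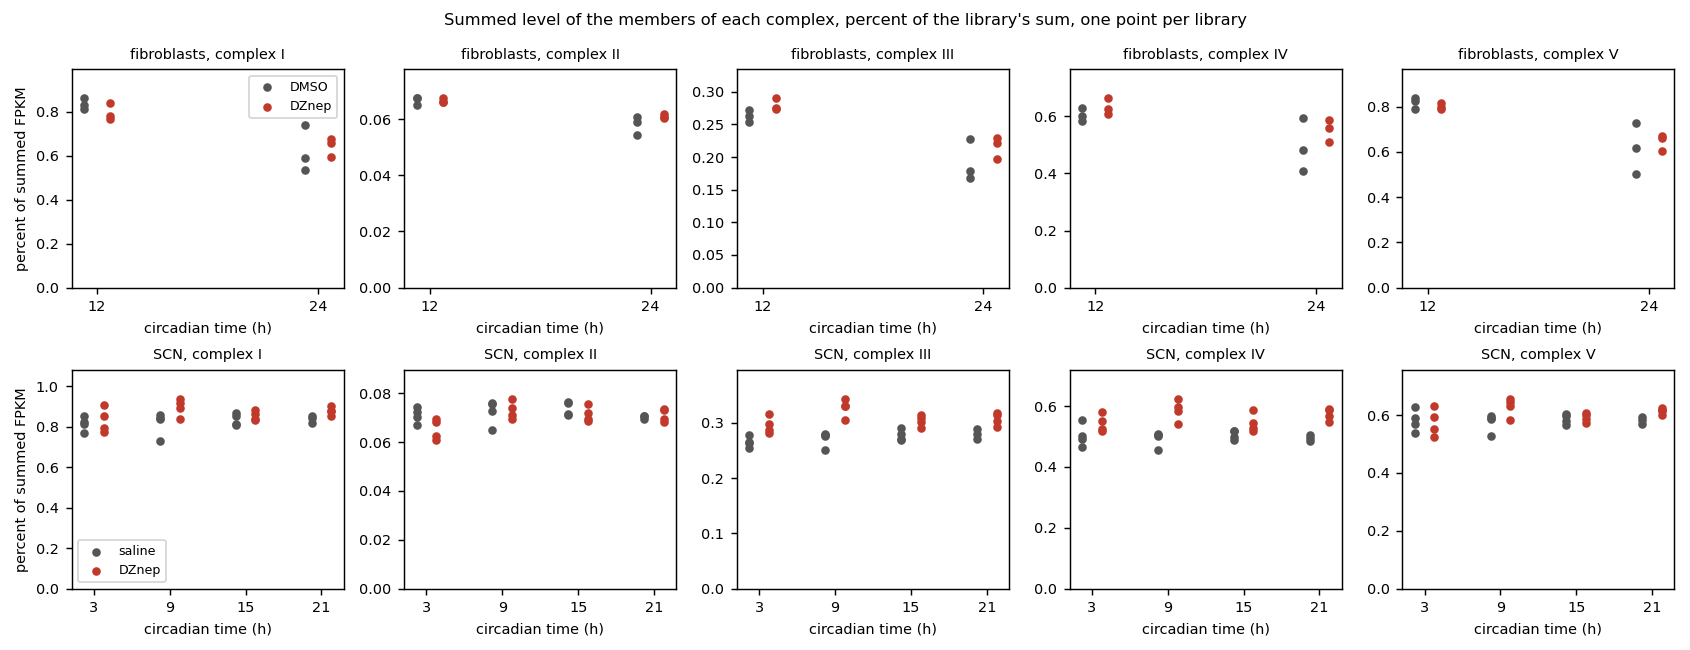
Summed level of the members of each complex as a percent of the library's summed FPKM (y axis, from 0) by circadian time (h), 1 point per library, in DZnep fibroblasts (top) and SCN (bottom). The group means of the fibroblast sums are lower at CT24 than CT12 in both arms. Single libraries overlap for complex IV under DMSO (2000.83 to 2302.22 FPKM at CT12, 1053.24 to 2057.69 FPKM at CT24). In the SCN the complex III and IV points lie mostly higher under DZnep.

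Cox6a1, the general form of a complex IV subunit, was between 67.6 and 86.5 FPKM under saline (median 77.2) and between 85.1 and 124 FPKM under DZnep (median 102), a log2 difference of 0.38 (SE 0.044, adjusted p = 2.16e-07). In complex III, Uqcrq and Uqcr11, both small subunits, were higher by 0.31 each, and Uqcrfs1, the Rieske iron-sulfur protein, by 0.14. In complex I, Ndufv3 was higher by 0.32 and Ndufa12 by 0.25. All are subunits outside the catalytic core except Uqcrfs1. Cox6c was higher by 0.21, and Atp5e, Atp5d and Atp5f1 of complex V by 0.18, 0.14 and 0.10.

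Ndufa6 and Cox7a2l went the other way. Ndufa6 lay between 104 and 142 FPKM under saline (median 117) and between 82.5 and 117 FPKM under DZnep (median 95.8), a log2 difference of -0.34 (SE 0.028, adjusted p = 1.82e-09). The arms overlapped in the deposited values, and the difference was called at all 4 times, at -0.34, -0.39, -0.34 and -0.27 from CT3 to CT21. Cox7a2l lay between 32.1 and 46.3 FPKM and between 29.5 and 40.1 FPKM, a log2 difference of -0.28 (SE 0.034, adjusted p = 6.37e-07), called at CT3 and CT9. The other lower members were Cox7a1 (-0.57) and Cox6b2 (-0.47), both at low levels, and Sdha (-0.09) and Atp5a1 (-0.08), whose calls were lost as deposited (adjusted p 0.27 and 0.358) and with quantile normalization (0.591 and 0.627).

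**Figure D5:**
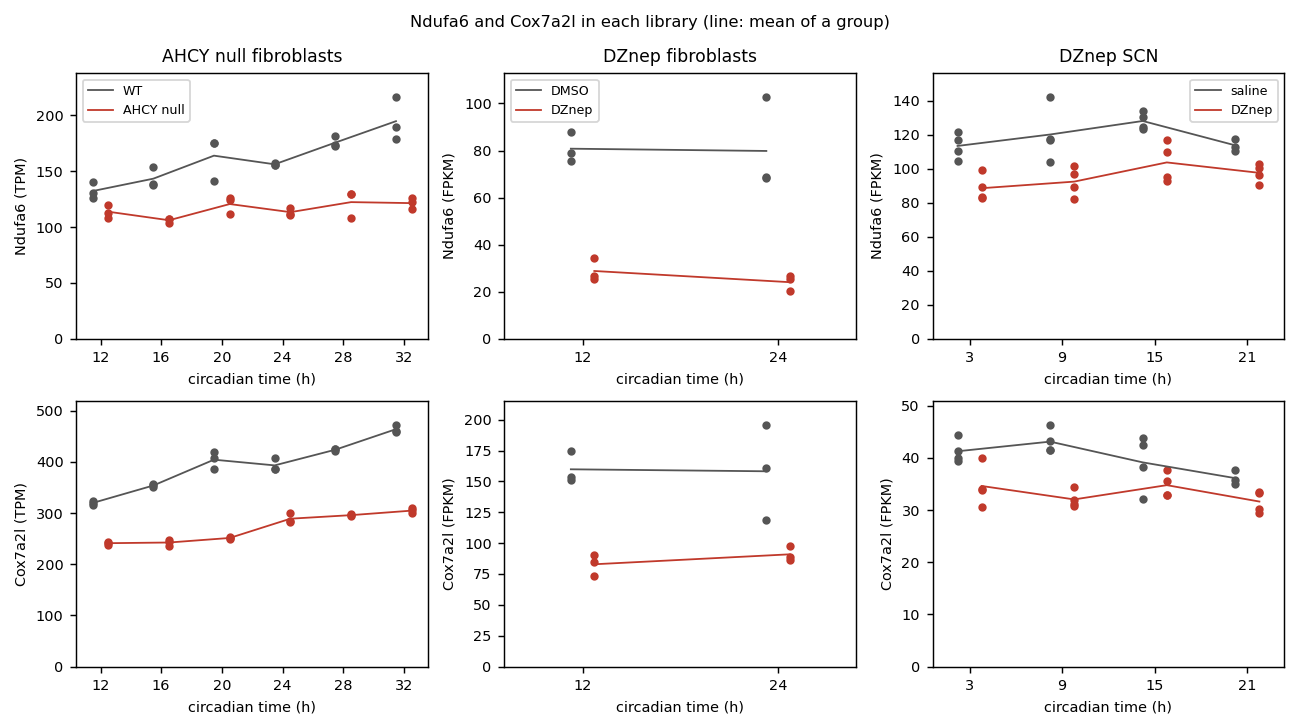
Ndufa6 (top) and Cox7a2l (bottom) in every library by circadian time (h), with lines through the group means, in TPM or FPKM. Values are as deposited, without rescaling. DZnep fibroblasts lie below DMSO fibroblasts throughout (20.2 to 34.3 against 68.1 to 103 FPKM for Ndufa6), and the SCN arms overlap.

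By time in the SCN, 12 members were higher (5.62% of all genes) and 3 lower (7.3%) at CT3, 14 (6.47%) and 2 (7.52%) at CT9, 6 (4.23%) and 1 (4.67%) at CT15, and 4 (1.98%) and 2 (2.28%) at CT21. With values as deposited the higher calls numbered 4, 6, 2 and 1, and with quantile normalization 19, 28, 14 and 8. Cox6a1 was higher at all 4 times. The 24 h terms were called for 4 members under saline, Atp5e, Atp5k, Cox7a2l and Ndufv3 (18.3% of all genes), and for 1 under DZnep, Ndufc1 (10.2%). The difference of the terms was called for 0 members (0.308% of all genes), with 3 (12.8% of all genes) at an unadjusted p under 0.05.

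The 3 experiments used separate controls. Of 77 members tested in all, 4 were lower in all 3: Ndufa6, Cox7a2l, Sdha and Atp5a1. That is 5.19% of the members, against 5.76% of all 9706 genes, so the share is near the background. 0 members were higher in all 3 (5.38% of all genes). The most frequent pattern among the members, in 17 of 77 (22.1%, against 3.01% of all genes), was lower in AHCY null fibroblasts, not called under DZnep in fibroblasts and higher in the SCN, as for Cox6c and Uqcr11; 3 of the 17, Atp5g1, Ndufs4 and Ndufs6, took the opposite call in AHCY null without rescaling. 7 members (9.09%, against 10.3% of all genes) were higher in AHCY null and lower in DZnep fibroblasts: Sdhb, Sdhc, Ndufs1, Ndufs3, Ndufa5, Atp5c1 and Atp5f1.

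Genes that serve the chain without meeting the rule were read from lists chosen with earlier results of these data known. Cytochrome c, Cycs, the carrier from complex III to IV, was higher in all 3 experiments, by 1.1, 0.67 and 0.23. Of 49 assembly factors, 19 were higher and 25 lower in AHCY null fibroblasts, and in the SCN 14 and 4; of 42 in DZnep fibroblasts, 16 and 13. The shares of all genes called higher and lower were 42.6% and 47% in AHCY null, 33.1% and 32.7% in DZnep fibroblasts and 16.9% and 18.3% in the SCN, and the lists were not tested against them. Surf1, which builds complex IV, was lower in DZnep fibroblasts (-1.07) and SCN (-0.21). Of the regulators of mitochondrial genes, 9 of 14 were higher and 5 lower in AHCY null, 7 of 11 higher and 1 lower in DZnep fibroblasts, and 3 of 13 higher and 0 lower in the SCN; Tfam, which binds mitochondrial DNA, was lower in AHCY null by -0.65, and Nrf1 was higher in the SCN by 0.16. Of 14 enzymes of the citric acid cycle, 4 were higher and 9 lower, 3 and 7, and 5 and 0 in the same order, with Ogdh, of the oxoglutarate dehydrogenase complex, higher under DZnep by 0.76 in fibroblasts and 0.24 in the SCN.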

How the data were processed

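Members, gene lists and tests were chosen with earlier results of these data known. Per the submitters' processing notes, the tools, named without role or order, were TopHat2 (2.1.1), Cufflinks (2.2.1), Trimmomatic (0.36) and bcl2fastq (2.18.0.12), with build mm10. Annotation and strand setting: not given in the sources used here. The authors deposited the AHCY null and WT table as values read here as TPM, since each library sums to 970075 to 980677, and the DZnep tables as FPKM. Counts were not used here, so the depth per library is unknown. Many SCN values have decimals like means of 4 numbers, so they may be summaries. No library was identical to another. SCN rows with the same gene name were averaged (1074 repeats, added over the saline and DZnep tables).

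Values were rescaled within each experiment by median ratios, using the genes whose value reached 1 in each library. The test took genes whose deposited value reached 1 in 3 or more libraries and used limma 3.58.1 (R 4.3.3; trend, group means) on log2(value + 1), which understates changes of low genes, with Benjamini-Hochberg adjustment over all genes and a threshold of 0.05. Named members were, per comparison and complex, up to 3 higher and 3 lower with the smallest adjusted p, with the largest amplitudes, the isoform pairs and complex II in full; Ndufa6 and Ndufv3 were also named after their values were seen. That the replicates were separate cultures or animals is not stated, so p-values measure the spread between these samples. The test was checked on simulated data. Same-numbered replicates showed only weak joint deviation (correlation -0.28 to 0.232). Samples were therefore treated as unpaired, though weak correlations cannot exclude that the numbers pair them. Alternatives were other pseudocounts, filters and scalings, a replicate block, left-out libraries and other time models.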

Additional observations from a re-analysis of the deposited data

Results flagged for a closer look

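In the SCN groups of 4 libraries, complex sums and levels of single genes were tested for a library far from the others. Of 105 such sets of 4 values, 8 passed the limit. Chance passes about 1 in 20 separate sets. The 8 of 105 are not far above that rate. These sets share libraries, and some genes are part of the sums, so passes can come together. Their number can then vary more than among separate sets. In the DZnep SCN library CT3 replicate 2, the summed level was 213.9 FPKM for complex II (others 171.1 to 175.7), 935.4 for complex III (791.2 to 805.6) and 1730 for complex IV (1452 to 1471), and Sdha was 108.9 (83.04 to 87.37). At CT9, replicate 1 had a complex IV sum of 1426 FPKM (1552 to 1565). At CT15, replicate 1 had a complex I sum of 2609 FPKM (2361 to 2398) and replicate 4 had Uqcrq at 167.3 FPKM (200.6 to 206.2). At CT21, replicate 4 had Sdhb at 49.29 FPKM (44.25 to 44.88). All are DZnep SCN libraries. These values were not rescaled. Summed FPKM over all genes was 313317 in CT3 replicate 2 (others 253464 to 280932) and 313887 in CT15 replicate 1 (271353 to 282172). It was 280657 in CT21 replicate 4 (257322 to 268011). For CT9 replicate 1 and CT15 replicate 4 it lay within the range of the others. The part of these library sums in the flagged values was not tested. The 24 h terms of Ndufv3 differed between AHCY null and WT fibroblasts by the joint test of sine and cosine (adjusted p 0.0495). Its fitted amplitude was lower by -0.156 on the log2 scale in AHCY null fibroblasts, a value without a test of its own.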

How the results depend on the processing

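The count of members called over the mean of the times in AHCY null fibroblasts stayed within 1.5 times of 26 higher and 51 lower under every alternative tried, the farthest being values as deposited (37 and 35); leaving out each library in turn gave 26 higher and 49 to 51 lower. Values as deposited also gave 28 higher and 32 lower at CT12, 27 lower at CT20, 31 and 29 at CT24 and 33 higher at CT28, and 10 members called lower over the mean of the times were then called higher, Uqcrc2 among them (0.0525 over the mean of the times, 0.0282 at CT24, 0.0239 at CT28 and 0.0252 at CT32). The count of members with a 24 h difference between lines, 1 in the main setting (Ndufv3), was 0 with values as deposited, with no filter and with the replicate block. It was 4 without CT20, 29 as any difference among times, and 0 to 3 when each library was left out. With a linear trend it was 13, 16.2% of members against 16.2% of all genes, and the Ndufv3 amplitude difference was 0.0409. In WT the 24 h terms gave 13 members without the libraries high in Malat1 and 56 as any difference among times. In AHCY null they gave 3 with quantile normalization, 17 as any difference and 0 with a linear trend (6.67% of all genes). Counts without a share of all genes beside them show dependence on the setting only.

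DZnep in fibroblasts gave 5 higher and 16 lower with values as deposited, 14 higher with quantile normalization, 4 higher with no filter and 40 lower without the high Malat1 library; with each library left out, 1 to 13 higher and 19 to 40 lower. At CT12 the counts were 7 higher with quantile normalization and 1 higher and 29 lower without the high Malat1 library (0 to 1 and 8 to 33 with libraries left out); at CT24 7 lower as deposited, 13 higher with quantile normalization and 28 lower without that library (1 to 21 and 6 to 28). CT24 minus CT12 gave 0 higher under DMSO with a mean of 5 or more and without that library (0 to 1 with libraries left out), and under DZnep 3 higher with quantile normalization, 15 lower with no filter, 0 higher with a mean of 5 or more and 50 lower without that library (8 to 53, lowest without DZnep CT24 replicate 1 and highest without DMSO CT24 replicate 3). The difference of these changes gave 1 lower without that library, and 0 to 16 higher and 0 to 1 lower with libraries left out.

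In the SCN, values as deposited gave 4 higher and 1 lower at CT3, 6 higher at CT9, 2 higher at CT15, and 1 higher and 1 lower at CT21; quantile normalization gave 19, 28, 14 and 8 higher at these times, and 7 higher at CT21 with a mean of 5 or more. Leaving out each library gave 6 to 14 higher at CT3, 7 to 16 higher and 2 to 4 lower at CT9, 1 to 11 higher and 1 to 3 lower at CT15, and 1 to 9 higher at CT21; without saline CT9 replicate 2, 4 were lower at CT9 and 9 higher at CT21. Under saline the 24 h terms gave 0 members as deposited, 2 with no filter, 2 with the replicate block, 1 as any difference and 1 with a linear trend (2 to 5 with libraries left out), and under DZnep 0 as deposited and 2 with the block (1 to 4). Atp5a1 in the SCN turned to 0.0183 with quantile normalization. The replicate block gave 2 lower at CT15 and changed no other count by over 1.5 times beyond those named. The causes were not tested.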
